A study of Mus musculus with 57 samples.

Results

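The cell division and DNA replication genes are a module of 42 named mouse genes, of which 20 act in mitosis and 22 in DNA synthesis. Members were taken by symbol, and each was read from its probe set with the highest mean signal among those naming one gene only. That gave 41 measured members (19 mitotic, 22 replication) of 18165 genes on the arrays; Ccnb1, the main mitotic cyclin, had no probe set naming it alone and is not analysed here. All 41 passed the filter on low signal, as did 15310 genes in all. Each array's mitotic score and replication score is the mean log2 signal over the 19 and 22 genes.

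The arrays profile blood-forming tissue from mice that carry a leukemia fusion gene under the vav promoter, which is active in blood cells. CA10 mice carry vav-CALM-AF10, NHD13 mice carry vav-NUP98-HOXD13, and both lines develop acute myeloid leukemia. There were 57 arrays in 14 groups. Leukemic spleens came from 6 CA10 and 6 NHD13 samples, taken when clinical signs of leukemia appeared. Clinically healthy CA10 samples were 5 spleens, 4 thymuses, 3 whole marrows and 3 lineage-negative marrows, the marrow fraction depleted of mature blood cells. Clinically healthy NHD13 samples were 3 thymuses, 3 whole marrows and 3 lineage-negative marrows. Wild-type samples were 2 spleens, 7 thymuses, 6 whole marrows, 3 lineage-negative marrows and 3 further whole marrows labelled C57B6; wild-type tissue came from age-matched littermates where the submitters could. Mice were untreated, ages were not given, and the strain of the other groups was not stated. Whether arrays of a group came from different mice is not stated, so p-values measure the spread between arrays, which may be technical.

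A dividing cell first copies its DNA and then separates the copies. Before DNA synthesis the MCM helicase ring is loaded at replication origins by Cdc6 and Cdt1, activated with Cdc45 and the GINS proteins, and followed by primase, polymerases and the Pcna clamp. Mitosis is driven by Cdk1 with its cyclins and by the Plk1 and Aurora kinases, while kinesin motors build the spindle and checkpoint proteins hold division until chromosomes are attached. The replication genes are classical targets of E2F factors at the start of DNA synthesis, whereas many mitotic genes are switched on later through CHR and CCAAT elements in their promoters.

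RefSeq promoter windows (GRCm38.p6; 250 bases before to 50 after a gene start, on the gene's strand) were found for 34 of the 41 members, 15 mitotic and 19 replication genes with 38 windows between them. They are shown because the lists are scored apart and their promoters differ in letters. Both strands were searched. The CHR element was TTTGAA and the CCAAT box its own name. The E2F site was taken as any of 4 forms: TTGGCGC was the first, with TTCCCGC and, further, TTCGCGC or TTGCCGC. An E2F match can overlap another E2F match. CHR was found in 11 of 15 mitotic windows (73.3%), in 3 of 23 replication windows (13.0%) and in 17.9% of all 32841 windows. E2F letters were found in 2 of 15 mitotic windows (13.3%), in 17 of 23 replication windows (73.9%) and in 9.6% of all windows. CCAAT was found in 86.7% of mitotic, 56.5% of replication and 37.4% of all windows, and CHR together with CCAAT in 73.3%, 8.7% and 7.0%. Capitals mark these matches in the promoters of Cdk1, the mitotic kinase, at chr10:69352863-69353162 (minus strand); of Plk1, a kinase of mitotic entry, at chr7:122159185-122159484 (plus strand); of Mcm5, a helicase subunit, at chr8:75109259-75109558 (plus strand); and of Pcna, the sliding clamp, at chr2:132253131-132253430 (minus strand).
Cdk1: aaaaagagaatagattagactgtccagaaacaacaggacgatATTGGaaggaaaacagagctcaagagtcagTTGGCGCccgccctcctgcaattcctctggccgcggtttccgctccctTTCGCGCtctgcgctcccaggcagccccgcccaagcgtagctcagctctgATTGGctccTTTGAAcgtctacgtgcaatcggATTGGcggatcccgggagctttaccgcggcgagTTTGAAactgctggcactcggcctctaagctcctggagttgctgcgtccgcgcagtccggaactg
Plk1: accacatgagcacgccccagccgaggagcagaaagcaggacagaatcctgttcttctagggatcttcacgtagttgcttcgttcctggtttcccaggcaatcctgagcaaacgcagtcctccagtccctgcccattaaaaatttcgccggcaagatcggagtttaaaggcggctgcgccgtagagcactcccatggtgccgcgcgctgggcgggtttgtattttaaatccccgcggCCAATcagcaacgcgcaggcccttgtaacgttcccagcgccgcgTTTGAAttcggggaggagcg
Mcm5: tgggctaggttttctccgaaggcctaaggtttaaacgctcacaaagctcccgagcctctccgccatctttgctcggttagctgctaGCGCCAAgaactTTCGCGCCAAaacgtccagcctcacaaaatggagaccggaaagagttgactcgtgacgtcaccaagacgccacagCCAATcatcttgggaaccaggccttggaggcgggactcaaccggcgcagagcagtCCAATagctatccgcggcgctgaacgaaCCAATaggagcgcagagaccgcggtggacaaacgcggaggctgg
Pcna: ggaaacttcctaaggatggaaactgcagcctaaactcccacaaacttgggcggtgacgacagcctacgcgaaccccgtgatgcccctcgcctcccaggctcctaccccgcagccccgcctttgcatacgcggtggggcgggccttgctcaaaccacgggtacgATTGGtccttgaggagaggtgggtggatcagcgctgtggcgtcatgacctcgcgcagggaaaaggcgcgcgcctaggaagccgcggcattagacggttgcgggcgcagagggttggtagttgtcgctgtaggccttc
The Plk1 window holds 1 CCAAT and 1 CHR match near the gene start. The Cdk1 window holds 2 CHR, 3 CCAAT and 2 E2F matches, Mcm5 holds 3 E2F and 3 CCAAT matches and no CHR, and Pcna holds 1 CCAAT match only. A match describes the letters, not a bound site.

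Some arrays stand apart. Wild-type thymus 2 went against its label: Rag1, which cuts antigen receptor genes in immature thymocytes, was at 4.06 there and at 12.26 to 13.10 on the other 6 wild-type thymuses, and Ms4a1, a B-cell gene, was at 10.53 against 6.28 to 7.92. NHD13 lineage-negative marrow 3 had the widest gap between 3' and 5' Gapdh control signal, a sign of RNA quality, at 2.95 log2. Healthy CA10 spleen 1 had the next widest, at 2.09, against 0.135 to 0.584 on the other healthy CA10 spleens. A set of 10 arrays had a lower 75th percentile of signal (6.90 to 7.15, against 7.26 to 7.72 on the other 47): wild-type thymus 6, array 3 in all lineage-negative groups, all CA10 whole marrows and, of the wild-type whole marrows, 4, 5 and 6. The immature-thymocyte genes were high in the remaining thymuses, and late-neutrophil genes were lower in all lineage-negative groups than in whole marrow.

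On both scores most marrow groups were high, and CA10 thymus, wild-type spleen and wild-type thymus had the lowest means. Without wild-type thymus 2, wild-type thymus averaged 9.57 and 9.67, above healthy CA10 spleen on both scores. On the deposited values NHD13 leukemic spleens lay among the marrows. With quantile normalization they averaged 9.98 (mitotic) and 10.07 (replication), against 9.98 to 10.37 and 9.63 to 10.66 in the marrow groups. On that replication score only C57B6 marrow was lower. The mitotic score averaged 10.42 ± 0.27 (SD, n = 3) in NHD13 whole marrow, 10.27 ± 0.19 (n = 6) in wild-type marrow and 10.19 ± 0.19 (n = 6) in NHD13 leukemic spleens. It averaged 9.54 ± 0.43 (n = 6) in CA10 leukemic spleens, 9.18 ± 0.63 (n = 5) in healthy CA10 spleens and 8.94 ± 0.67 (n = 2) in wild-type spleens. Neighbours in the order of all 14 groups overlapped. The NHD13 leukemic spleens, at 9.95 to 10.39, lay above every CA10 leukemic (8.66 to 9.80) and every non-leukemic spleen (8.18 to 9.76).

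**Figure D1:**
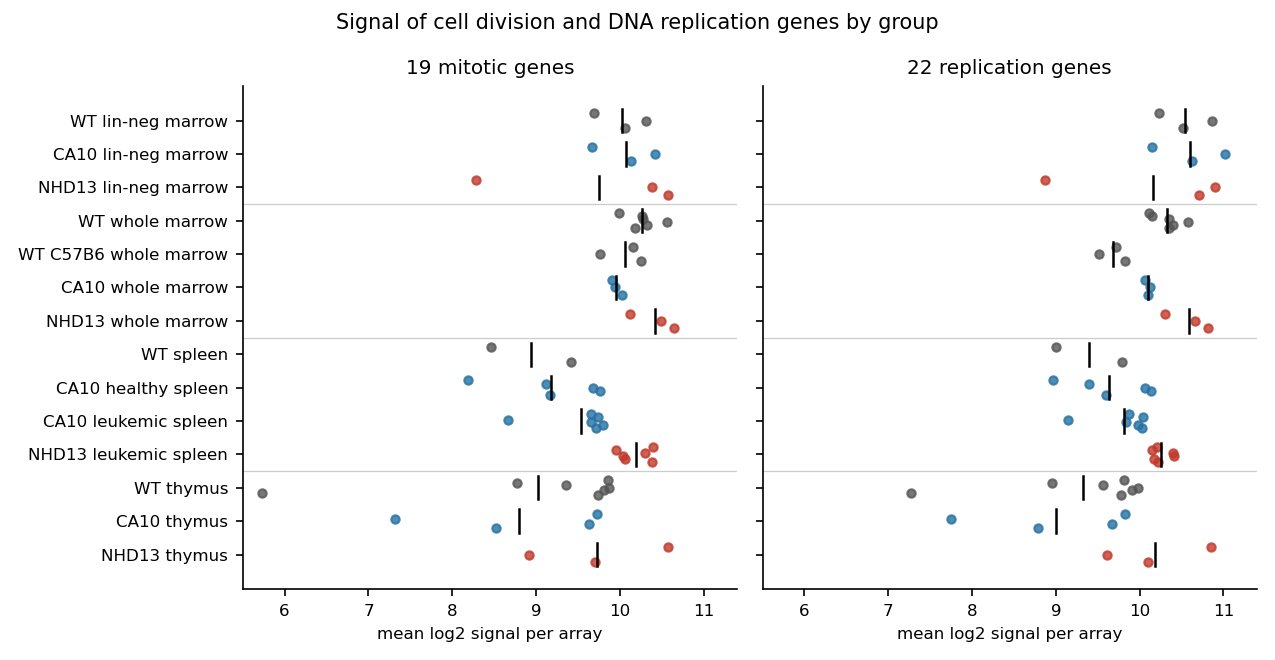
Each point is 1 array; the horizontal axis is the mean log2 signal of the 19 mitotic (left) or 22 replication genes (right), rows are the 14 groups, black ticks are group means, and colour gives the genotype (grey wild type, blue CA10, red NHD13). NHD13 leukemic spleens lie above all other spleens in both panels, and wild-type thymus 2 lies apart at 5.73 (mitotic) and 7.28 (replication).

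The replication score placed several groups differently. It averaged 10.60 ± 0.44 (n = 3) in CA10, 10.54 ± 0.32 (n = 3) in wild-type lineage-negative marrow and 10.59 ± 0.26 (n = 3) in NHD13 whole marrow, against 10.32 ± 0.17 (n = 6) in wild-type marrow. NHD13 leukemic spleens averaged 10.26 ± 0.12 and CA10 leukemic spleens 9.82 ± 0.34 (n = 6 each). Wild-type lineage-negative marrow was thus above wild-type whole marrow on this score and below it on the mitotic score (10.02 ± 0.32, n = 3). C57B6 marrow averaged 9.69 ± 0.15 (n = 3), below the CA10 leukemias and every other whole marrow, whereas on the mitotic score it averaged 10.06 ± 0.26 and lay above the CA10 leukemias. Wild-type spleen and wild-type thymus exchanged places, with 8.94 and 9.02 on the mitotic and 9.39 and 9.32 on the replication score. Single members were spread over these tops: the highest group mean was in NHD13 whole marrow for 9 mitotic and 7 replication members and in NHD13 leukemic spleen for 5 and 1. It was in CA10 or wild-type lineage-negative marrow for 4 mitotic and 12 replication members. The lowest mean was in CA10 thymus for 12 and 13 members and in wild-type spleen for 7 and 6.

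Across arrays the lists moved together. Pearson's r between the scores was 0.943 over 57 arrays and 0.929 without wild-type thymus 2; arrays of a group share a tissue and the points share each array's scaling, so r is given as a description. Over 56 arrays, the members most like the rest of their list were Tpx2, a spindle assembly factor (r = 0.972), Cdk1 (0.966) and Rrm1, the large subunit of ribonucleotide reductase (0.956). The members least like it were replication genes: Fen1, the nuclease that trims Okazaki fragment flaps (0.583), Tyms, which makes thymidylate (0.623), and Rrm2, the regulated subunit of ribonucleotide reductase (0.687). Mitotic minus replication score varied among groups. Its 0 point depends on the probe sets, so only differences between arrays are read. The C57B6 marrows, at 0.24 to 0.44, lay above the other wild-type marrows, at -0.17 to 0.11. Low values occurred in several tissues: wild-type and CA10 lineage-negative arrays lay between -0.60 and -0.46 and NHD13 lineage-negative arrays at -0.14, -0.51 and -0.59, while group means were -0.45 in wild-type and in healthy CA10 spleen and -0.46 in NHD13 thymus.

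**Figure D2:**
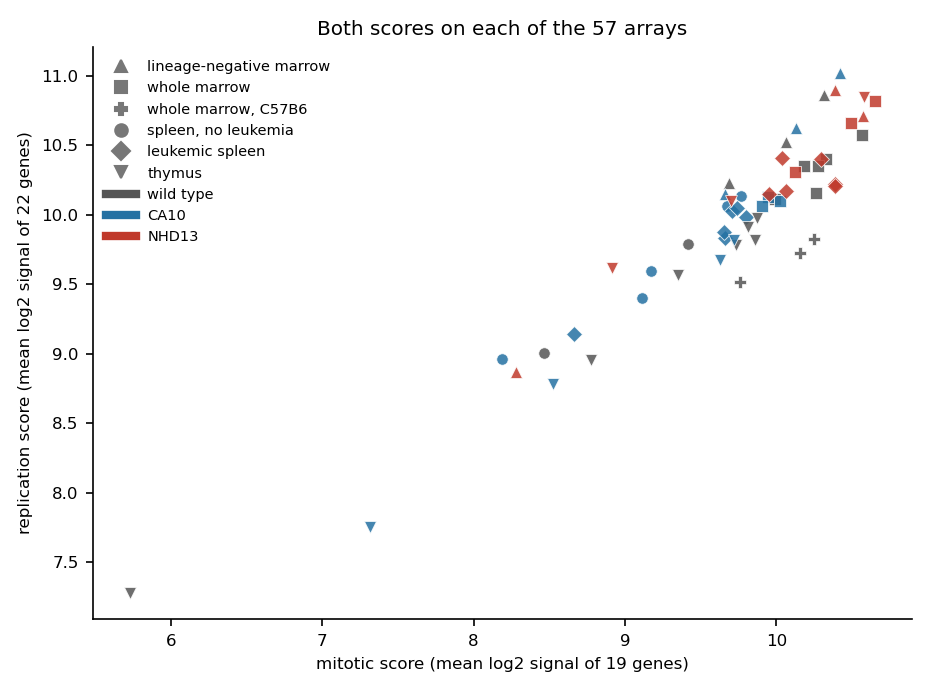
Each symbol is 1 of the 57 arrays, with its mitotic score on the horizontal and replication score on the vertical axis (mean log2 signal); shape gives the tissue and colour the genotype. C57B6 marrows lie below the main band on the replication axis; lineage-negative marrows other than NHD13 array 1 lie on its upper side, as do non-leukemic spleens and NHD13 thymuses.

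In NHD13 leukemic spleens much of the module was higher than in wild-type spleen. Of 19 mitotic genes 10 rose and none fell, and of 22 replication genes 12 rose and none fell, where 19.1% of all genes were called higher and 12.3% lower (limma, adjusted p below 0.05). The median log2 difference was 1.13 for mitotic and 0.83 for replication genes, against 0.04 for all genes. Roles were grouped after the values were seen. By role, 5 of 7 spindle motor and kinetochore genes rose, 4 of 5 polymerase and clamp genes and 3 of 5 helicase loading and activation genes. So did 2 of 3 spindle checkpoint genes and 3 of 6 MCM subunits. Fewer calls were made among cyclins and mitotic kinases (2 of 6), chromosome structure and passenger genes (1 of 3), nucleotide supply (1 of 3) and flap and nick processing (0 of 2).

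The largest mitotic differences were in kinesins of the spindle and midzone. Kif20a, a kinesin needed to finish cell division, read 6.85 and 6.27 on the wild-type spleens and 8.45 to 9.16 (median 9.01) on the NHD13 leukemias. It rose by 2.38 ± 0.45 log2 (SE; 5.21-fold; adjusted p = 0.000961), and the groups did not overlap. Kif11, the motor that pushes spindle poles apart, read 8.20 and 6.84 against 9.52 to 10.29 (median 9.81), a rise of 2.30 ± 0.44 (4.92-fold; adjusted p = 0.00105). Aurkb, the kinase that corrects chromosome attachment, rose by 2.01 ± 0.39 (adjusted p = 0.00124), from 7.74 and 6.93 to between 8.76 and 9.63. Bub1, a spindle checkpoint kinase, rose by 1.67 ± 0.45 (adjusted p = 0.00966) and Kif23, a midzone kinesin, by 1.63 ± 0.32 (adjusted p = 0.00135). In all 5 genes, every leukemic array was above both wild-type spleens. Over the arrays the chosen probe set correlated with the gene's other probe sets at 0.369 for Bub1 and 0.364 to 0.857 for Kif23. Plk1, Tpx2, Bub1b, Cenpe and Top2a rose by at least 1.07 log2.

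Of proliferation markers often used as single readouts, Top2a rose, as given above, but Mki67 and Cdk1 were not called. Mki67, the Ki-67 antigen, read 12.52 and 11.83 on wild-type spleens and 11.69 to 12.69 on NHD13 leukemias, a difference of 0.08 ± 0.32 (adjusted p = 0.881). Cdk1 read 10.06 and 8.80 against 9.97 to 11.00, a difference of 1.06 ± 0.44 that did not pass (adjusted p = 0.0753). For both genes the groups overlapped.

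Among replication genes the largest differences were in Chek1, Cdc45 and the GINS genes. These are readings of 1 chosen probe set per gene. Over the arrays it correlated with the gene's other probe sets at 0.258 for Cdc45, 0.025 to 0.903 for Chek1, 0.77 for Gins1 and 0.931 for Gins2. Cdc45, which activates the MCM ring, read 7.27 and 6.31 on wild-type spleens and 8.36 to 9.03 (median 8.68) on NHD13 leukemias, a rise of 1.87 ± 0.39 log2 (3.66-fold; adjusted p = 0.00173). Its partners in the GINS complex rose too, Gins1 by 1.87 ± 0.43 (adjusted p = 0.00353) and Gins2 by 1.74 ± 0.38 (adjusted p = 0.00236). Chek1, the kinase that restrains cells with stalled forks, rose by 1.99 ± 0.45 (3.97-fold; adjusted p = 0.00327), from 7.67 and 6.07 to between 8.60 and 9.31. Rfc4, a subunit of the clamp loader, rose by 1.66 ± 0.41 (adjusted p = 0.00591). In these genes no leukemic array overlapped a wild-type spleen. Cdc6 and Cdt1, which load the helicase, were not called, and the MCM subunits had a median difference of 0.58. The clamp itself, Pcna, differed by 0.15 ± 0.28 (adjusted p = 0.718), with 12.89 and 12.43 on wild-type spleens against 12.41 to 12.97. Rrm2 differed by -0.09 ± 0.35 (adjusted p = 0.866) and Fen1 by -0.29 ± 0.25 (adjusted p = 0.396). Over the members, 13 mitotic and 13 replication genes were above both wild-type spleens on every leukemic array, where 22.4% of all genes were.

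The wild-type spleens differed from each other as much as many of these contrasts. All 19 mitotic and all 22 replication genes were higher in wild-type spleen 1 than in 2, with a median gap of 0.93 and 0.70 log2. Without wild-type spleen 2 the medians were smaller, at 0.78 for mitotic and 0.50 for replication genes. With the C57B6 marrow difference subtracted 0 mitotic and 6 replication members were called (limma). The medians were then larger, at 1.54 and 1.49. That contrast needs marrow arrays and so a fit over the arrays of all tissues. Such a fit without the subtraction called 6 mitotic and 6 replication members. The smaller number of replication calls was thus already there without the subtraction. Cell composition moved with the contrast: all 10 B-cell and all 10 T-cell markers fell in NHD13 leukemias, and 5 of 6 primary-granule markers rose. The mean of the B-cell markers was 11.08 and 11.41 on wild-type spleens and 5.54 to 6.83 on the leukemias. Erythroid marker means overlapped, at 10.06 and 10.83 against 8.67 to 10.42. In bulk tissue a larger share of dividing cells and more RNA per dividing cell cannot be told apart, and the part of composition in these differences was not tested. NHD13 leukemia 3, whose primary-granule mean was lowest of the 6 (8.93), had scores of 10.04 and 10.41, within the range of the others or just above it.

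**Figure D3:**
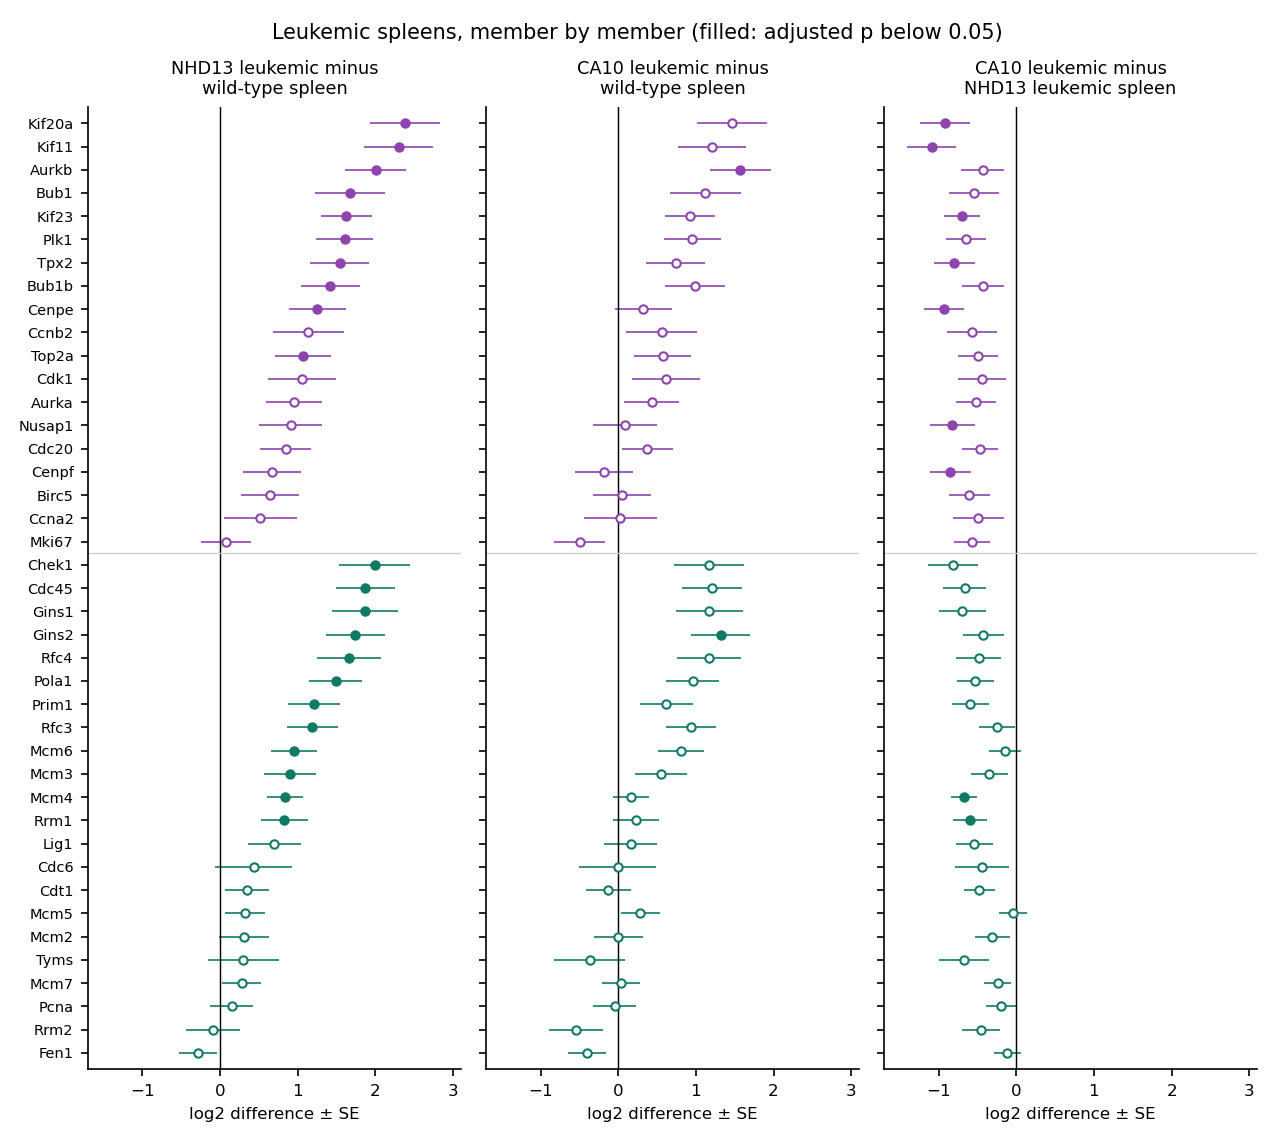
Points are log2 differences of group means with their standard errors for the 19 mitotic (purple, upper) and 22 replication genes (green, lower), for NHD13 leukemic against wild-type spleen, CA10 leukemic against wild-type spleen, and CA10 against NHD13 leukemic spleen; filled points passed at an adjusted p below 0.05. Every member is below 0 in the right panel, and Pcna, Rrm2, Fen1 and Mki67 sit near or below 0 in the left panel.

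CA10 leukemic spleens differed less from wild-type spleen. There 1 of 19 mitotic and 1 of 22 replication genes rose, near the share of all genes, of which 5.63% were called higher and 2.42% lower. The medians were 0.57 and 0.26. Aurkb read 8.27 to 9.52 on the CA10 leukemias, above both wild-type spleens, and rose by 1.57 ± 0.39 log2 (adjusted p = 0.0241). Gins2 read 7.24 to 8.42 against 7.04 and 6.51 and rose by 1.32 ± 0.38 (adjusted p = 0.0405). Kif20a, at 7.15 to 8.25, was also above both wild-type spleens, but its difference of 1.46 ± 0.45 did not pass (adjusted p = 0.0525). Without either wild-type spleen no member was called, and without CA10 leukemia 4 there were 4 mitotic and 5 replication calls. Of the markers, 6 of 10 B-cell and 2 of 10 T-cell genes were lower in CA10 leukemias and 2 of 6 primary-granule and 3 of 8 monocyte and macrophage genes were higher; their part in these differences was not tested.

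CA10 leukemia 4 was the lowest of its group on both scores (8.66 and 9.14, against at least 9.65 and 9.83). It also had a B-cell marker mean of 9.62 (6.55 to 9.43 on the others) and an erythroid mean of 7.52 (6.25 to 10.75). Whether these bear on its low scores was not tested.

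Healthy CA10 spleens overlapped the CA10 leukemias on both scores. Their mitotic scores were 9.17, 9.76, 9.68, 9.12 and 8.18, and none of the 41 members differed from wild-type spleen (limma; 0 members at an unadjusted p under 0.05 and 0 called among all genes, percent called 0). Against these healthy CA10 spleens, Aurkb alone of the 41 members rose in CA10 leukemia, by 1.15 ± 0.29 log2 (limma adjusted p = 0.0302). Of all genes 4.18% were called higher and 1.83% lower, so this was no larger a share than of all genes. The call rested on few arrays: it was lost without CA10 spleen 5 or without any 1 of CA10 leukemias 1, 2, 3 and 6, and became 4 calls without leukemia 4. Primary-granule marker means were 12.05 and 11.94 on healthy CA10 spleens 1 and 3 and 6.97 to 9.05 on the other 3, so the healthy group was itself mixed on that list.

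Set side by side, every measured member had a lower mean in CA10 than in NHD13 leukemic spleens. The medians were -0.57 for mitotic and -0.46 for replication genes, against -0.02 for all genes. Of 19 mitotic genes 7 were called lower and none higher, and of 22 replication genes 2 and none. Of all genes 13% were called lower and 11.7% higher, so the replication calls were no larger a share than of all genes. The 7 mitotic calls were Kif11, Cenpe, Kif20a, Cenpf, Nusap1, Tpx2 and Kif23. The class called spindle motor and kinetochore genes here holds the same 7. It was drawn after the values were seen, so the match is not a result. The class also takes in Tpx2, a spindle assembly factor, and Nusap1, a spindle microtubule protein. Kif11 read 7.63 to 9.37 in CA10 and 9.52 to 10.29 in NHD13 leukemias and fell by 1.09 on the log2 scale (SE 0.31; adjusted p = 0.0172). Cenpe, the kinesin that carries chromosomes to the spindle equator, fell by 0.93 (SE 0.26; adjusted p = 0.0154) and Cenpf, a kinetochore protein, by 0.85 (SE 0.26; adjusted p = 0.027). None of the 3 overlapped between the leukemias; in all, 5 mitotic and 2 replication genes were below on every array, where 5.15% of all genes were.

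On the replication side Mcm4, a helicase subunit, read at most 10.72 in CA10 and 10.97 to 11.33 in NHD13 leukemias and fell by 0.67 on the log2 scale (SE 0.16; adjusted p = 0.00668), with no overlap. Rrm1 fell by 0.60 (SE 0.21; adjusted p = 0.0488), but the mean over all its probe sets gave a difference of 0.02, so its direction depends on the probe set. The other MCM subunits differed by -0.35 to -0.04 and were not called. The 9 calls became 3 without CA10 leukemia 4 or without NHD13 leukemia 6, 4 without NHD13 leukemia 1, and 5 without CA10 leukemia 3 or NHD13 leukemia 4. With the C57B6 marrow difference subtracted none was called, although the medians were then larger in size, at -0.86 and -1.02. That contrast needs marrow arrays and so a fit over the arrays of all tissues. Such a fit without the subtraction already called 0 members, with medians of -0.57 and -0.46. The loss of calls is therefore not read as an effect of the subtraction. Of B-cell markers 8 of 10 and of T-cell markers 5 of 10 were higher in CA10 leukemias; their part in the difference was not tested.

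Compared with the progenitor-rich lineage-negative marrow of wild-type mice, the NHD13 leukemias differed on 2 members. Kif23 was 1.17 ± 0.41 log2 higher (adjusted p = 0.0208) and Fen1 0.85 lower (log2 difference -0.85 ± 0.24; adjusted p = 0.00461), and the other 39 did not pass; 20.9% of all genes were called higher and 15.6% lower. Kif23 read 8.82, 8.86 and 8.46 in lineage-negative marrow and 9.25 to 10.17 in the leukemias, and Fen1 read 11.87, 12.10 and 11.84 against 10.87 to 11.22. Without wild-type lineage-negative marrow 3 the Kif23 call was lost. In CA10 leukemias no mitotic member was called and 3 of 22 replication members fell against the same marrow. Of all genes 18.2% were called higher and 13.1% lower there, so the replication calls were near the share of all genes. Fen1 fell by 0.97 (SE 0.24; adjusted p = 0.00143), Chek1 by 1.37 (SE 0.48; adjusted p = 0.0234) and Cdt1, the licensing factor, by 0.88 (SE 0.35; adjusted p = 0.0486). All 22 replication genes had lower means there, with a median of -0.71. Only Fen1 was called without any 1 of CA10 leukemia 4 and wild-type lineage-negative marrows 1 and 2; over the fit to these groups alone there were 6 mitotic and 13 replication calls, all lower. These comparisons set spleen against marrow, so tissue and leukemia cannot be told apart. Mature-cell markers moved with them: late-neutrophil genes were higher in NHD13 (9 of 9) and CA10 leukemias (8 of 9), as were all 8 monocyte and macrophage genes in both and 5 of 10 B-cell genes in CA10, and their part was not tested.

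Within wild-type marrow, the replication genes lay somewhat higher and the mitotic genes somewhat lower in the lineage-negative fraction than in whole marrow. The medians were 0.23 and -0.12 log2, 17 of 22 replication and 6 of 19 mitotic differences were above 0, and no member was called (limma; 1 of 41 at an unadjusted p under 0.05), where 14.9% of all genes were called higher and 11.3% lower. Chek1 read 9.53, 9.77 and 8.96 in the lineage-negative fraction and 7.90 to 8.66 in whole marrow, without overlap; its difference was 1.09 ± 0.48 (adjusted p = 0.0885). Nusap1, a spindle microtubule protein, read 9.72, 10.18 and 9.66 against at least 10.85 in whole marrow, a difference of -1.18 ± 0.62 (adjusted p = 0.168). Cenpf, at 8.87, 9.20 and 8.23 against 9.57 to 10.20, was likewise below on every array. In all, 5 replication genes were above and 5 mitotic and 1 replication genes below on every array, where 15.9% of all genes were above and 13% below. Of markers, 9 of 9 late-neutrophil, 6 of 8 monocyte and macrophage and 6 of 10 B-cell genes were lower. Stem and progenitor genes were higher for 2 of 8, and the markers' part was not tested. Whole marrows 4, 5 and 6 and lineage-negative array 3 have the lower 75th percentile. With quantile normalization the mean replication score was 10.57 against 10.42 in whole marrow, and the mitotic score 10.07 against 10.37. The fit of this contrast shared its spread with all 57 arrays. Fitted on the compared groups alone it called 5 mitotic genes lower, 3 replication genes higher and 1 lower, and without wild-type thymus 2 and NHD13 lineage-negative marrow 3 it called 2 mitotic genes lower and 1 replication gene higher.

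The same contrast in CA10 marrow had medians of 0.15 for mitotic and 0.48 for replication genes, with 21 of 22 replication differences above 0 and no call (limma; 2 members at an unadjusted p under 0.05; 16% of all genes higher, 14% lower). All CA10 whole marrows belong to the set with a lower 75th percentile, while only the third CA10 lineage-negative array does. The mean mitotic score was 10.07 in CA10 lineage-negative and 9.96 in CA10 whole marrow on the deposited values. With quantile normalization these were 10.15 and 10.27, so the direction reversed. The replication score stayed higher in the lineage-negative fraction, at 10.66 against 10.36. In NHD13 marrow the medians were -0.66 and -0.39, also with no call (2 at an unadjusted p under 0.05; 11.9% higher, 14.7% lower). They turned to 0.10 and 0.28 without NHD13 lineage-negative marrow 3, whose scores were 8.28 and 8.87 against 10.39 to 10.57 and 10.71 to 10.90 on arrays 1 and 2. A moderated F test of whether the fraction difference varied with genotype called 0 members (1 at an unadjusted p under 0.05; lowest adjusted p 0.192, Rfc3), where 1.97% of all genes were called.

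**Figure D4:**
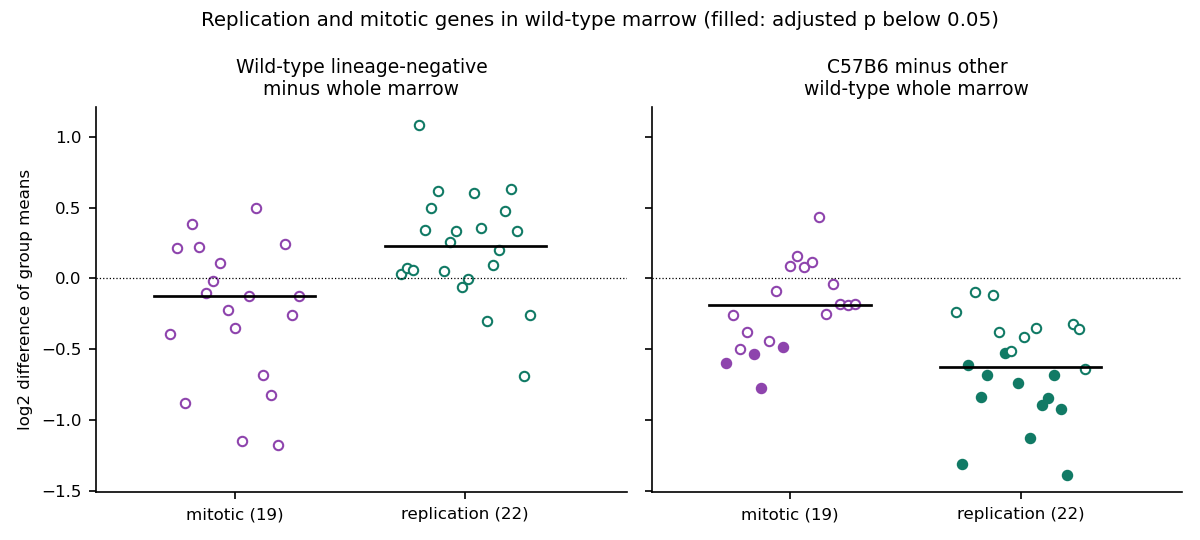
Each point is 1 member's log2 difference of group means, for wild-type lineage-negative against whole marrow (left) and C57B6 against the other wild-type whole marrows (right), by list; black lines are medians and filled points passed at an adjusted p below 0.05. The replication median is 0.23 at left and -0.63 at right, and only the right panel has filled points, 4 mitotic and 12 replication.

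The C57B6 marrows had less signal for replication genes than the other wild-type marrows. Of 22 replication genes 12 fell and of 19 mitotic genes 4 fell, with none higher, where 5.2% of all genes were called lower and 14% higher. The medians were -0.63 and -0.19, against 0.01 for all genes. All 5 polymerase and clamp genes (Pcna, Rfc3, Rfc4, Prim1 and Pola1) fell. Rfc4 read 9.02, 7.93 and 8.95 on C57B6 marrows and 9.37 to 10.41 on the others, and fell by 1.39 on the log2 scale (SE 0.26; adjusted p = 0.00168). Cdc6, which loads the helicase, read 9.48, 8.65 and 9.36 against 9.96 to 10.74 and fell by 1.31 (SE 0.23; adjusted p = 0.000986). Mcm6 fell by 1.13 (SE 0.19; adjusted p = 0.000845), Rfc3 by 0.92 (SE 0.22; adjusted p = 0.00862), Pcna by 0.89 (SE 0.21; adjusted p = 0.00812) and Fen1 by 0.83 (SE 0.15; adjusted p = 0.00149). On each of these 6 genes every C57B6 array was below every other wild-type marrow.

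Of the 7 spindle motor and kinetochore genes, a class drawn after the values were seen, none was called. Their differences ran from -0.18 to 0.43. Kif23 was the highest, at 10.07, 9.45 and 9.97 against 9.18 to 9.61, a difference of 0.43 that was not called. The mitotic genes called were Ccna2, a cyclin of both DNA synthesis and mitosis (fell by 0.77), Aurka (fell by 0.59), Bub1b (fell by 0.53) and Cdk1 (fell by 0.48). In all, 16 replication and 4 mitotic genes were below on every array, where 6.49% of all genes were. The size of the set depended on single arrays: without C57B6 marrow 2, the lowest of the 3, 6 replication genes were called lower and 1 mitotic gene higher, and without C57B6 marrow 3, 7 and 1 were called lower. Monocyte and macrophage markers (5 of 8) and B-cell markers (5 of 10) were higher and erythroid markers (7 of 14 tested) lower in C57B6 marrow. Erythroid marker means were 10.28 to 10.72 against 10.90 to 11.34. The gap between 3' and 5' Gapdh signal was 1.36 on C57B6 marrow 2, 0.34 and 0.35 on the other C57B6 arrays and at most 0.51 on the other wild-type marrows. With that gap as a covariate 6 replication genes and no mitotic gene were called lower, and the medians were -0.50 and -0.14. The part of cell composition in the result was not tested.

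Between transgenic and wild-type marrow of clinically healthy mice no member of the module was called. In lineage-negative marrow CA10 medians were 0.06 and 0.09 and NHD13 medians -0.24 and -0.39, with no member called (limma; 0 of 41 at an unadjusted p under 0.05 in each; 0 and 0.0588% of all genes called). The NHD13 medians became 0.27 and 0.09 without the arrays of lower 75th percentile, NHD13 array 3 among them. In whole marrow CA10 medians were -0.33 and -0.15, with every mitotic gene below 0 and no call (limma; 9 members at an unadjusted p under 0.05; percent called 0). Against wild-type marrows 4 to 6, the arrays with the same lower 75th percentile, the medians were -0.20 and -0.10. NHD13 whole marrow had medians of 0.17 and 0.32, with 21 of 22 replication differences above 0 and no call (limma; 4 at an unadjusted p under 0.05; 0.607% of all genes higher, 0.575% lower). An alternative chosen after seeing the data took the C57B6 marrows as controls. There NHD13 whole marrow had 4 mitotic and 14 replication members higher, so the result depended on which wild-type marrows served as control. The share of all genes called in this alternative is not given here, so its calls are not read as particular to the module. In C57B6 against other wild-type marrow 16 members were called lower, where 5.2% of all genes were called lower and 14% higher.

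In thymus the module varied widely within groups. Mitotic scores on the 6 other wild-type thymuses averaged 9.57 ± 0.43 and ran from 8.78 to 9.87; CA10 thymuses read 8.53, 9.63, 7.32 and 9.72, and NHD13 thymuses 8.91 to 10.58. CA10 thymus 3 also had the lowest immature-thymocyte marker mean of its group (9.14, against 10.23 to 10.66). No member was called in CA10 thymus (limma; 0 at an unadjusted p under 0.05; percent called 0) or in NHD13 thymus (limma; 2 at an unadjusted p under 0.05; 0.398% of all genes higher, 0.366% lower). NHD13 medians of 0.70 and 0.80 dropped to 0.14 and 0.51 without wild-type thymus 2. CA10 medians of -0.17 and -0.30 became -0.76 and -0.66 without it. They became 0.29 and 0.10 without CA10 thymus 3, but that fit kept wild-type thymus 2, which went against its label and had low scores. Rfc3 had the largest NHD13 difference, 1.45 ± 0.48 (adjusted p = 0.212). It read 9.30, 8.55 and 10.29 in NHD13 thymuses, and 6.80 to 8.57 in wild-type thymuses, so that NHD13 thymus 2 overlapped the wild-type range.

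Wild-type thymus had lower levels than wild-type whole marrow. Of mitotic genes 15 fell and of replication genes 17, where 24.2% of all genes were called lower and 25.6% higher. Without wild-type thymus 2 these became 9 and 10. Cell types differed between the tissues: all 14 erythroid and all 9 late-neutrophil markers tested were lower in thymus (medians -6.15 and -7.11) and all 10 T-cell markers higher (median 4.44), and their part was not tested. Cdc6 fell by 2.17 on the log2 scale (SE 0.48; adjusted p = 0.000222), with 8.13 to 9.21 on the 6 other thymuses, 5.19 on thymus 2 and 9.96 to 10.74 in marrow. Cdt1 ranged from 8.61 to 10.57 in thymus and lay below every marrow. Aurkb fell by 1.80 (SE 0.45, limma adjusted p = 0.000927), a difference enlarged by thymus 2. It read 4.55 on thymus 2, 7.04 to 8.52 on the 6 other thymuses and 9.02 to 10.07 in marrow. Moderated F tests of whether a transgene's difference varied among tissues called 0 members for CA10 (0 at an unadjusted p under 0.05; 0% of all genes) and 0 for NHD13 (5 at an unadjusted p under 0.05; lowest adjusted p 0.194, Rfc3; 0.856% of all genes).

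Further genes of the pathway moved with the members in leukemia. In NHD13 leukemic against wild-type spleen, 25 of 38 other mitotic genes rose and 1 fell, and 26 of 36 other replication genes rose and none fell. Of all genes 19.1% were called higher and 12.3% lower in that comparison. Nuf2, a kinetochore protein, rose by 2.52 ± 0.45 log2 (adjusted p = 0.000608), and Orc2, of the origin recognition complex, by 1.06 ± 0.18 (adjusted p = 0.000398). Of 20 cell cycle activators 8 rose, among them Cdk4, the G1 kinase, by 1.04 ± 0.19 (adjusted p = 0.000861). Of 19 inhibitors 3 rose, no larger a share than of all genes, and 4 fell. The latter were E2f5, a repressive E2F factor (fell by 2.30), the antiproliferative genes Btg2 (fell by 2.45) and Btg1 (fell by 1.89), and E2f4 (fell by 1.14). E2f5 and E2f4 were also lower in C57B6 than in the other wild-type marrows, by 2.00 and 1.68.

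In CA10 leukemic against wild-type spleen, none of 38 other mitotic genes and 4 of 36 other replication genes (Pold2, Pole2, Rpa3 and Rfc5) rose, beside 5.63% of all genes. Of 19 inhibitors only Cdkn1a, the p21 inhibitor that halts the cycle, was called, near the share of all genes. It rose by 2.49 ± 0.50 log2 (limma adjusted p = 0.011). Against healthy CA10 spleen it rose by 1.73 ± 0.37 (limma adjusted p = 0.0155), where 4.18% of all genes were called higher. Cdk4 rose in the same comparisons by 1.00 ± 0.19 (adjusted p = 0.00954) and 0.66 ± 0.14 (adjusted p = 0.0166). Set against NHD13 leukemias, 14 other mitotic genes were lower and 2 higher, and 18 other replication genes were lower and none higher in CA10. Of all genes 13% were called lower and 11.7% higher there.

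In wild-type lineage-negative against whole marrow 7 of 36 other replication genes rose, beside 14.9% of all genes, among them Orc2 (1.35 ± 0.21; adjusted p = 1.55e-06) and Pold2, a subunit of polymerase delta (1.69 ± 0.29; adjusted p = 1.38e-05), and none of 38 other mitotic genes was called. Of the inhibitors 6 fell and 2 rose. Cdkn2d fell by 3.97 on the log2 scale (adjusted p = 9.32e-09), Btg2 fell by 3.48 (adjusted p = 3.66e-08) and Cdkn1b, the p27 inhibitor, fell by 2.85 (adjusted p = 4.95e-06). All 9 late-neutrophil markers fell in the same contrast, with a median of -6.66; their part in the inhibitors' change was not tested.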

How the data were processed

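The values are log2 probe set signals that the authors normalized with RMA (robust multi-array averaging), per the submitters' processing notes. They were deposited as 1 value table of 57 arrays. Differences are relative to all probe sets, but the arrays did not share 1 scale fully. Their 75th percentiles were 6.90 to 7.15 on 10 arrays and 7.26 to 7.72 on 47. Quantile normalization moved the mean mitotic score of CA10 whole marrow from 9.96 to 10.27. The deposited values ran from 2.58 to 14.65, and array medians from 5.44 to 5.85. Arrays give no counts, so the number of arrays limits the precision. GEO's platform annotation named 1 gene for 34842 of 44943 probe sets, several for 931 and none for 9106, and 64 were controls. Per gene the probe set with the highest mean was used. Of 32 members with several probe sets, 14 had another that correlated below 0.5 with the chosen one. Signals of different probe sets were not compared, apart from the mitotic minus replication score. The 0 point of that score depends on the probe sets, so only its differences between arrays are read.

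Genes above the array's 40th percentile on at least 3 arrays (15310) were fitted with limma 3.58.1 (lmFit, eBayes) in R 4.3.3, by tissue, or over all 57 arrays for comparisons across tissues, with Benjamini-Hochberg adjustment over all genes and calls at 0.05. The procedure was tested on simulated data. The members, gene lists and tests were chosen with earlier results of these data known. The text names from 8 anchors (Mki67, Top2a, Cdk1, Plk1, Mcm5, Pcna, Rrm2 and Cdc45), up to 5 called members of each list with the largest differences per comparison, members called against the direction of their list, and up to 4 called genes of each other list with the smallest adjusted p; any further gene was chosen after its values were seen. Replicate numbers were taken as pairs where every pair's deviations correlated above 0.1: only in transgenic against wild-type lineage-negative marrow (0.20 to 0.70 for CA10, 0.21 to 0.74 for NHD13). Alternatives changed the filter, probe set rule, normalization, fit, arrays and covariates. Shares of all genes are given for the main fits only, so counts from alternatives show how far calls depend on the fit.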

Additional observations from a re-analysis of the deposited data

Results flagged for a closer look

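The 2 scores, their difference and 8 members' levels were screened for an array far from the rest of its group, in 66 sets of values; 18 were set apart, where chance alone sets apart about 1 in 20. Most were 2 arrays. CA10 leukemia 4 was lowest of 6, at 8.66 on the mitotic score, 9.14 on the replication score, 10.77 for Mki67, 9.0 for Cdk1 and 6.93 for Cdc45. Wild-type thymus 2, which lacked thymocyte genes, was lowest of 7. It read 5.73 on the mitotic score, 7.28 on the replication score and -1.54 on their difference. Its members read 7.57 for Mki67, 6.86 for Top2a, 6.03 for Cdk1, 5.26 for Plk1, 7.99 for Mcm5, 10.85 for Pcna and 6.09 for Rrm2. The other 3 were single values: the score difference of healthy CA10 spleen 5 (-0.78, nearest other -0.43), Rrm2 in CA10 thymus 3 (9.18, nearest other 11.22) and Top2a in wild-type whole marrow 6 (11.26).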

How the results depend on the processing

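Of 338 recomputed counts of called members 264 stayed within 1.5 times the main count, as did all 3 F tests, and 50 of 56 score differences from the mean of all arrays moved by under 1 SD. Counts below are called members in all, without the share of all genes called in each alternative. NHD13 leukemic against wild-type spleen (22 in the main fit) gave 12 over all 57 arrays and 6 with the C57B6 marrow difference subtracted, where the medians were 1.54 and 1.49. CA10 leukemic against wild-type spleen (2) gave 4 with the mean of all probe sets, 1 with quantile normalization, 6 on the compared groups alone, and 0 with a replicate block or over all 57 arrays. CA10 leukemic against healthy CA10 spleen (1) gave 3 with the mean of all probe sets, and 0 on the compared groups alone, with the replicate block, with the Gapdh covariate or over all 57 arrays. CA10 against NHD13 leukemias (9) gave 3 with quantile normalization, 15 on the compared groups alone, and 0 over all 57 arrays or with the C57B6 difference subtracted, with medians of -0.57 and -0.46 as in the main fit over all 57 arrays and of -0.86 and -1.02 with the subtraction. Wild-type lineage-negative against whole marrow (0) gave 1 with the mean of all probe sets, 9 on the compared groups alone, 8 with the replicate block, 3 without the 2 arrays that stand apart and 4 with marrow groups only. For CA10 these were 9 on the compared groups, 10 with the block, 1 with the Gapdh covariate, 2 without the 2 arrays and 1 with marrow groups only; for NHD13, 1 with the mean of all probe sets and 2 with marrow groups only. CA10 against wild-type whole marrow (0) gave 18 with the replicate block, which sets CA10 arrays of the lower 75th percentile against wild-type marrows 1 to 3 outside it. NHD13 whole marrow (0) gave 18 against C57B6 controls. C57B6 against other wild-type marrow (16) gave 8 on the compared groups, 6 with the Gapdh covariate and 1 over all 57 arrays. Wild-type thymus against marrow (32) gave 19 on the compared groups and 15 without the arrays of lower 75th percentile. NHD13 leukemia against wild-type lineage-negative marrow (2) gave 1 with the mean of all probe sets or quantile normalization, 9 on the compared groups and 0 with the block. For CA10 leukemia (3) these were 6, 8, 19 and 7, and 11 without the 2 arrays. Leaving out 1 array in turn gave 3 to 22, 0 to 9, 0 to 4 and 3 to 8 for the first 4 contrasts above. It gave 0 to 1 for CA10 and 0 to 5 for NHD13 lineage-negative against whole marrow, 7 to 17 for C57B6 marrow, 19 to 33 for thymus, and 1 to 2 and 1 to 4 for NHD13 and CA10 leukemia against lineage-negative marrow; NHD13 lineage-negative against whole marrow became 2 without array 1 and 5 without array 2 of the former, and CA10 became 1 without lineage-negative array 3. Where the numbers pair arrays (lineage-negative marrow, CA10 or NHD13 against wild type) the block called 0 members, as without it. Quantile normalization moved the mitotic and replication scores relative to all arrays to 0.60 and 0.44 in CA10 whole marrow and 0.31 and 0.15 in NHD13 leukemias, and the mean of all probe sets moved CA10 whole marrow to 0.21 and 0.20; it shifted the median of all genes by 0.12 for CA10 whole marrow, -0.12 for NHD13 leukemia against lineage-negative marrow and 0.10 for NHD13 lineage-negative against whole marrow. Rrm1 in CA10 against NHD13 leukemia turned to 0.016 with the mean of all probe sets; of the other single members 720 recomputed values kept their call and 158 lost it. The causes were not tested. Leaving out the arrays of lower 75th percentile was not possible for CA10 whole marrow, all of whose arrays are among them.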
